A study of Homo sapiens with 6 samples.

Results

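The hepatocyte identity transcription factors examined here are *HNF4A*, *FOXA1*, *FOXA2*, *FOXA3*, *CEBPA*, *ONECUT1*, *PROX1* and *GATA4*. They were taken by gene symbol, and 8 of 8 were found among the 20026 genes of the deposited table. RNA-seq had been done on HepG2, a human liver cancer cell line, in 6 libraries of 3 groups with 2 libraries each. The Scr group carried a scramble control, the miR-23a KO group a CRISPR/Cas9 knockout of the microRNA miR-23a, and the miR-27a KO group a CRISPR/Cas9 knockout of miR-27a from the same microRNA cluster. The knockout cells had been picked as clones, and the paper also mentions selected colonies of scramble cells. Which clone each library came from is not given in the sources used here. A difference between groups therefore cannot be told apart from one between clones. The comparison of each KO group with Scr asks how the RNA of these cells differs after an edit in a microRNA gene. The microRNAs of the cluster are made from a shared transcript and their mature levels were not analysed here, so a difference belongs to the edited cells and cannot be assigned to a single microRNA.

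Hepatocyte identity is held by a network of transcription factors that bind each other's control regions and those of liver genes. HNF4A is a nuclear receptor at the centre of this network, the FOXA proteins open chromatin at liver enhancers, and CEBPA is a leucine zipper factor that drives metabolic genes of the mature hepatocyte. ONECUT1, PROX1 and GATA4 act early in liver development. MicroRNAs lower transcripts whose 3'-UTR holds sites that pair with their seed.

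The microRNAs targeted in the KO groups are shown because their seeds set which transcripts they can pair with. Capitals mark bases 2 to 8, the seed, in the mature sequences from RefSeq (GRCh38.p14). Both lie on the minus strand of chromosome 19, miR-23a-3p at chr19:13836595-13836615 and miR-27a-3p at chr19:13836447-13836467.
hsa-miR-23a-3p: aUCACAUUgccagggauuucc
hsa-miR-27a-3p: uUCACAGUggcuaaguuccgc

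Exact matches to these seeds (AATGTGA for miR-23a-3p and ACTGTGA for miR-27a-3p) were searched in the 3'-UTR that GENCODE release 29 (GRCh38) gives for a gene. *FOXA3* on chromosome 19 held 3 matches for miR-27a-3p, at bases 123, 170 and 213 of a 3'-UTR of 739 bases. *HNF4A* on chromosome 20 held 1 match for each microRNA, and *FOXA1*, *CEBPA* and *PROX1* held 1 match for miR-23a-3p each. No such match was found in the 3'-UTR used for *FOXA2*, *ONECUT1* or *GATA4*. Over 15924 genes with an annotated 3'-UTR, 20.7% held a match for miR-23a-3p and 18.3% a match for miR-27a-3p. These shares take no account of 3'-UTR length, and longer ones hold more matches by base composition alone. The length was 4931 bases for *HNF4A*, 5668 for *PROX1*, 1381 for *FOXA1* and 1404 for *CEBPA*. The sites are shown with 10 bases on each side and the match in capitals, since they are the stretches that the seeds can pair with.
FOXA3 miR-27a-3p match, chr19:45873181-45873187: tctattacttACTGTGAtgactgctgt
FOXA3 miR-27a-3p match, chr19:45873228-45873234: tccacggggtACTGTGAtaaccaccat
FOXA3 miR-27a-3p match, chr19:45873271-45873277: cccactgggtACTGTGAggactgctac
HNF4A miR-27a-3p match, chr20:44434282-44434288: gatcacagtaACTGTGAgagctcccgt
HNF4A miR-23a-3p match, chr20:44432271-44432277: actttattgtAATGTGAgaaacacaaa
FOXA1 miR-23a-3p match, chr14:37590100-37590106: aatttttatcAATGTGAttgtaattaa
CEBPA miR-23a-3p match, chr19:33300339-33300345: tgccttgtgcAATGTGAatgtgcgcgt
PROX1 miR-23a-3p match, chr1:214037030-214037036: tattgaccaaAATGTGAgaagagtgta

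The Scr libraries held 14891239 and 14405250 counts, those of miR-23a KO 16515261 and 15930779, and those of miR-27a KO 15850589 and 15947308. Levels are given as CPM, counts scaled for depth with TMM over the 6 libraries, with replicate 1 before replicate 2. Markers of the labelled cell type were present. The 8 hepatocyte markers fixed for this check summed to between 25666 and 33515 CPM per library, and *SERPINA1*, a secreted protease inhibitor of the liver, had the highest mean over the 6 libraries. In Scr *ALB* was above it, with means of 12765 and 10882 CPM. Markers of blood were low apart from *CD68*, with 3 of 4 (*PTPRC*, *CD3E* and *HBB*) at 3 counts or fewer per library on average. The edited microRNA genes were not analysed here, so each group rests on its label.

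The miR-23a KO libraries stood apart from each other. Of 14163 genes that passed the filter on low counts, 46.8% differed more than 2-fold within this pair, against 8.68% in Scr and 3.16% in miR-27a KO. Among the transcription factors, *FOXA3*, *CEBPA*, *ONECUT1* and *PROX1* were more than 2-fold apart within the miR-23a KO pair. The difference moved with base composition. In the miR-23a KO pair the median log2 ratio of replicate 1 to replicate 2 was -1.11 for genes with a transcript GC content under 42% and 1.31 for those at 62% or more. The same medians were -0.37 and 0.21 in Scr, and -0.01 and 0.03 in miR-27a KO. *CEBPA*, with the highest GC content of the 8 genes (65.9%), had a log2 ratio of 2.32 in the miR-23a KO pair, and *PROX1*, with the lowest (40.7%), had -2.35. *ONECUT1*, at 58.1% and with 5 and 27 counts in that pair, went against the trend with -1.64. The fitted values of the 8 factors in miR-23a KO are therefore given with both libraries and with each on its own.

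**Figure D1:**
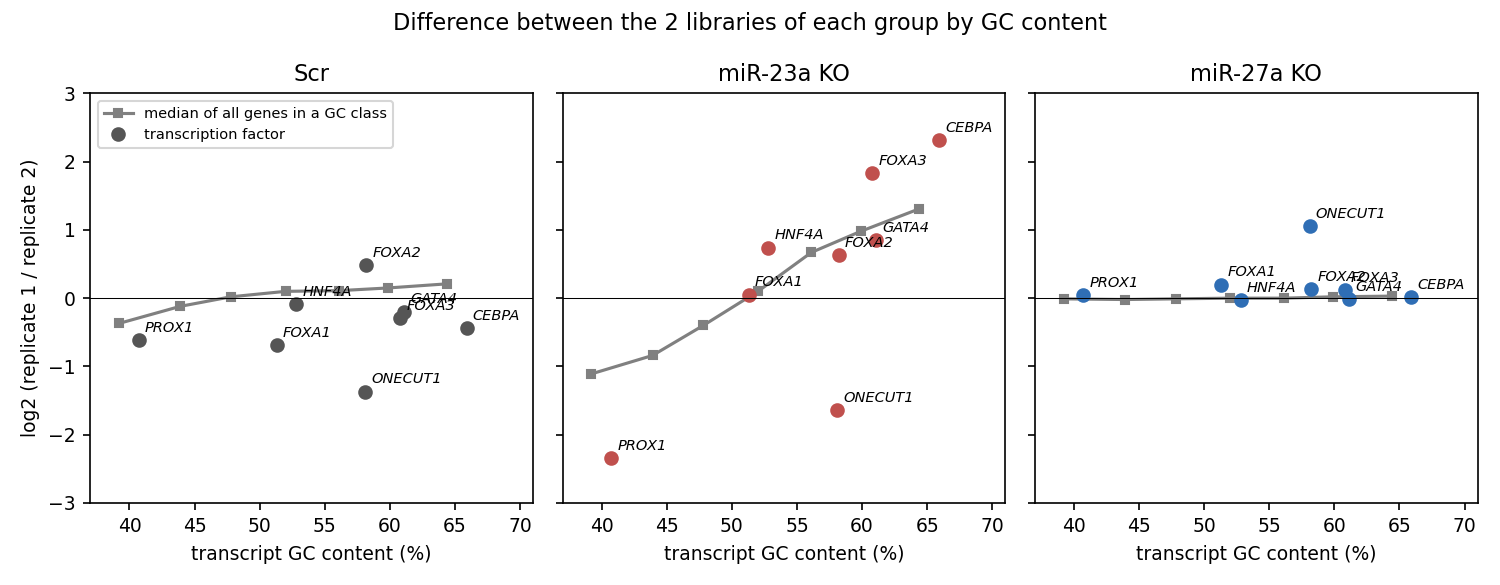
Log2 ratio of replicate 1 to replicate 2 (vertical axis) against transcript GC content in percent (horizontal axis) for each group, with the 8 transcription factors as points and the median of all genes in each GC class as squares. In miR-23a KO the class medians run from -1.11 to 1.31, with *PROX1* at -2.35 and *CEBPA* at 2.32.

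Per kilobase of transcript, the order of the mean levels over the 6 libraries was *CEBPA*, *HNF4A*, *GATA4*, *FOXA3*, *FOXA2*, *FOXA1*, *PROX1* and *ONECUT1*. In Scr the mean level was 148 CPM per kilobase for *CEBPA*, 54.5 for *HNF4A*, 36.7 for *GATA4* and 35.7 for *FOXA2*. *FOXA3* at 32.7 and *FOXA1* at 29.7 followed. The 4 genes between 29.7 and 36.7 were not separated in Scr, where single libraries ranged from 22.7 to 36.8 for *FOXA1* and from 29.8 to 41.5 for *FOXA2*. *PROX1* stood at 4.46 and *ONECUT1* at 0.406 CPM per kilobase. Among 17585 genes with a count and a known length, *CEBPA* lay at percentile 97.7 of the level per kilobase and *HNF4A* at 91.7, while *ONECUT1* lay at 30.2. All 8 genes passed the filter on low counts in each comparison, although *ONECUT1* had 5 to 27 counts per library.

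**Figure D2:**
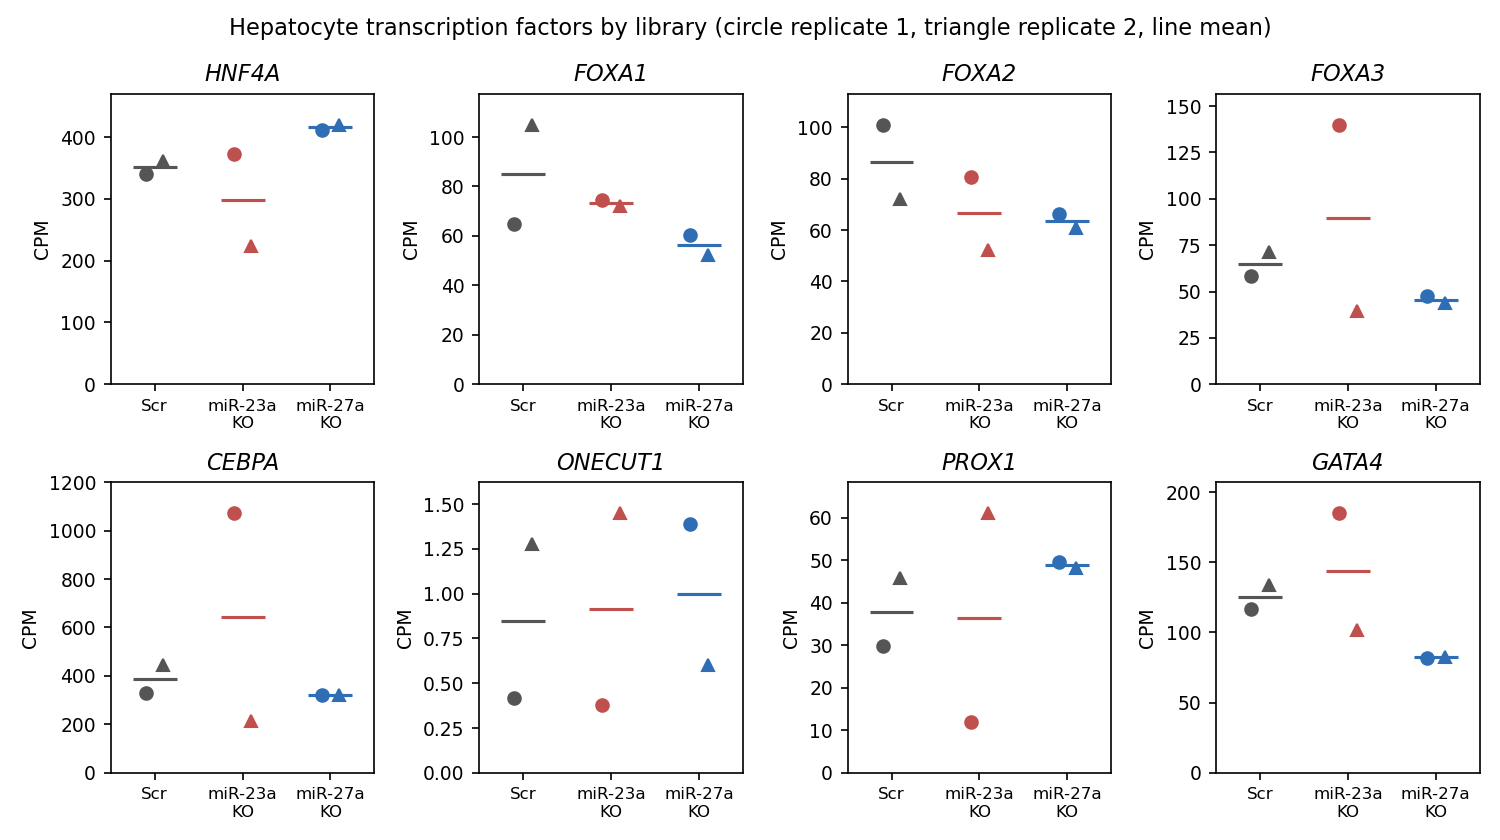
CPM of each transcription factor (vertical axis, starting at 0 and scaled for each gene) by group, with circles for replicate 1, triangles for replicate 2 and a line at the mean. The miR-27a KO libraries lie close together for every gene but *ONECUT1*, and the miR-23a KO libraries lie far apart for *CEBPA*, *FOXA3* and *PROX1*.

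Between miR-27a KO and Scr, *GATA4* fell and the other 7 factors did not pass the test. *GATA4*, a zinc finger factor of early endoderm, was at 117 and 134 CPM in Scr and at 82.1 and 82.5 in miR-27a KO. The miR-23a KO libraries had 185 and 102. Both miR-27a KO libraries were thus below the other 4. Its mean was 82.3 ± 0.291 CPM in miR-27a KO (SD, n = 2) and 125 ± 12 in Scr (SD, n = 2). The fitted log2 fold change was -0.61 (standard error 0.10), with an adjusted p of 0.0221 from the edgeR quasi-likelihood test (Benjamini-Hochberg). P-values here measure the spread between these libraries, since the labels do not say whether the replicates were separate cultures or clones. That spread was uneven. Squared deviations within a pair, divided by the noise of sampling reads, had a median of 1.81 in miR-27a KO, with genes of few reads left out. The same median was 12.7 in Scr and 158 in miR-23a KO. The miR-27a KO pair thus varied little beyond the noise of sampling reads. How far separate cultures or clones would vary was not tested, and the SD of 0.291 does not show it. In bulk RNA, fewer cells that express a gene and less of its RNA per cell cannot be told apart. With GC content and length corrected, the log2 fold change of *GATA4* was -0.34 and the edgeR quasi-likelihood test (Benjamini-Hochberg) gave 0.167, so the call was lost. It was also lost in a fit of all 6 libraries, which takes in how far the miR-23a KO libraries lie apart, with a log2 fold change of -0.61. Leaving out Scr replicate 2 (-0.51, under 1.5-fold) or either miR-27a KO replicate (-0.60 each) ended the call as well. Over all alternatives the adjusted p of edgeR and DESeq2 (Benjamini-Hochberg) lay between 8.46e-05 and 0.891.

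One of 8 factors called stands beside 10.3% of the 13820 genes tested, with 6.74% lower and 3.52% higher, so the count is near the background and is no result about these factors as a list. With the stricter adjusted p under 0.001, 0 of 8 were called, against 0.0289% of genes. DESeq2 called 1 of 8 at 0.05, against 8.14% of genes. At an unadjusted p under 0.05 by edgeR, 5 of 8 passed, against 32.2% of genes. The median log2 fold change of the 8 factors was -0.36, and that of all genes tested was 0.01. The median of the 8 factors moved with the fit. It lay between -0.16 and 0.02 after the correction for GC content and length. Leaving out Scr replicate 2 put it between -0.20 and -0.04. Leaving out Scr replicate 1 put it between -0.47 and -0.36.

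*HNF4A* was at 411 and 420 CPM in miR-27a KO and 340 and 362 in Scr. The miR-27a KO pair was above the Scr pair, while miR-23a KO had 373 and 224. The fitted log2 fold change against Scr was 0.24 (standard error 0.08), and the adjusted p of 0.112 (edgeR quasi-likelihood, Benjamini-Hochberg) missed the threshold. Each microRNA has 1 seed match in this transcript.

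The pioneer factor genes *FOXA1*, *FOXA2* and *FOXA3* were all lower in both miR-27a KO libraries than in both Scr libraries. *FOXA1* was at 60.3 and 52.4 CPM against 65 and 105 in Scr, with a log2 fold change of -0.60 (standard error 0.24). *FOXA2* was at 66.3 and 60.7 CPM against 101 and 72.1, with -0.45 (standard error 0.17). *FOXA3*, the gene with 3 seed matches for miR-27a-3p, was at 47.5 and 43.9 CPM against 58.6 and 71.5. Its log2 fold change was -0.51 (standard error 0.13). None of the 3 passed the edgeR quasi-likelihood test (Benjamini-Hochberg), where the adjusted p was 0.155 for *FOXA1*, 0.15 for *FOXA2* and 0.0591 for *FOXA3*. For *FOXA3* DESeq2 (Benjamini-Hochberg) gave 0.045, at under 1.5-fold. Without Scr replicate 1 the calls of *FOXA1* (log2 fold change -0.90) and *FOXA3* (-0.64) passed, and without Scr replicate 2 that of *FOXA2* (-0.66), in fits that called 16% and 26% of all genes. In the opposite cases *FOXA1* and *FOXA3* had -0.20 and -0.36 without Scr replicate 2, and *FOXA2* had -0.18 without Scr replicate 1. With GC content and length corrected, the log2 fold changes of *FOXA1*, *FOXA2* and *FOXA3* were -0.50, -0.16 and -0.21. The Scr pair itself differed for *FOXA1*, by a log2 ratio of -0.69.

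The sum of the FOXA transcripts per kilobase was 93.7 and 103 CPM in Scr and 72.3 and 65.5 in miR-27a KO. *FOXA2* made up 37.8% and 38.3% of it in miR-27a KO, between its shares of 44.3% and 29.1% in the Scr libraries. *FOXA3* took 33% and 33.7% of the sum in miR-27a KO and 31.4% and 35.1% in Scr. The make-up of the family thus lay within the range of the Scr pair for these genes. In miR-23a KO the share of *FOXA3* was 54.3% in replicate 1 and 29.9% in replicate 2.

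*CEBPA* was at 323 and 320 CPM in miR-27a KO and 330 and 447 in Scr. The groups did not overlap, but the lower Scr library was close to the miR-27a KO pair. The log2 fold change was -0.28 (standard error 0.15), with an adjusted p of 0.272 by the edgeR quasi-likelihood test (Benjamini-Hochberg), and with GC content and length corrected it was 0.02. Without Scr replicate 1 the value was -0.47, under 1.5-fold, with an adjusted p of 7.19e-05 by the edgeR quasi-likelihood test (Benjamini-Hochberg), and without Scr replicate 2 it was -0.04. On the opposite strand the gene AC008738.3 overlaps 659 of the 2631 bases of *CEBPA*. How the counting treated strand is not given in the sources used here, so reads of the pair may not be told apart.

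*PROX1*, a homeobox factor of the early hepatoblast, was at 49.6 and 48.3 CPM in miR-27a KO and 29.9 and 45.9 in Scr. The miR-27a KO pair lay above both Scr libraries, and the upper Scr library was near it. The log2 fold change was 0.37 (standard error 0.21) and the adjusted p 0.284 by the edgeR quasi-likelihood test (Benjamini-Hochberg). Without Scr replicate 1 it was 0.10, and without Scr replicate 2 it was 0.71 and passed the test. *ONECUT1*, also known as HNF6, was at 1.39 and 0.602 CPM in miR-27a KO and 0.417 and 1.28 in Scr, which overlap, with 6 to 23 counts per library.

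Counted over both directions, 5 of 8 factors were lower and 2 of 8 were higher in both miR-27a KO libraries than in both Scr libraries. Over all genes tested these shares were 32.1% lower and 32.1% higher. *ONECUT1* was the gene whose libraries overlapped.

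**Figure D3:**
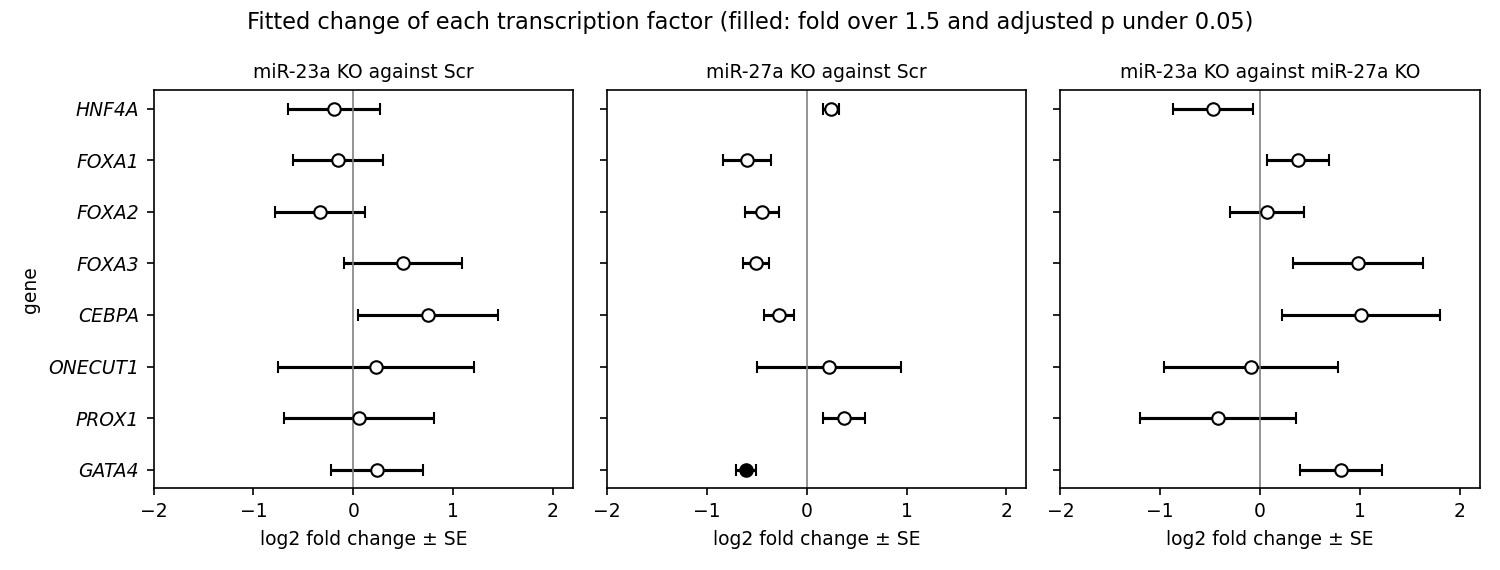
Fitted log2 fold change with its standard error (horizontal axis) for each transcription factor (vertical axis) in the 3 comparisons, filled where the fold change was over 1.5 and the adjusted p under 0.05. *GATA4* in miR-27a KO against Scr, at -0.61, is the filled point.

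Between miR-23a KO and Scr, 0 of 8 factors were called, and so were 0% of the 13786 genes tested at an adjusted p under 0.05 and 0% under 0.001 (edgeR quasi-likelihood, Benjamini-Hochberg). At an unadjusted p under 0.05, 0 of 8 factors passed, against 118 genes higher and 214 lower over the table (2.41%). DESeq2 called 0 of 8 factors and 64 genes (0.33%). For no factor did both miR-23a KO libraries lie above both Scr libraries (10.7% of genes) or below them (12% of genes).

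*CEBPA* was at 1072 and 215 CPM in miR-23a KO and 330 and 447 in Scr. Replicate 1 was above both Scr libraries and replicate 2 below both. The fitted log2 fold change was 0.75 (standard error 0.70) with both libraries, 1.46 with replicate 1 alone and -0.81 with replicate 2 alone.

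*FOXA3* followed the same order, at 140 and 39.5 CPM in miR-23a KO against 58.6 and 71.5 in Scr. Its log2 fold change was 0.50 (standard error 0.59) with both libraries, 1.11 with replicate 1 alone and -0.68 with replicate 2 alone. *PROX1* went the other way, at 11.9 and 61.1 CPM against 29.9 and 45.9. With both libraries the log2 fold change of *PROX1* was 0.06 (standard error 0.75), with replicate 1 alone -1.68 and with replicate 2 alone 0.73. For these 3 genes the direction was thus set by which library was used. With replicate 1 alone, *CEBPA*, *FOXA3* and *PROX1* were the 3 factors called, against 18.6% of all genes, and with replicate 2 alone 0 were called, against 4.12%. Whether base composition, which moved with the difference within the pair, has a part in these values was not tested beyond the corrected fit, in which the log2 fold change was 0.41 for *CEBPA*, 0.29 for *FOXA3* and -0.68 for *PROX1*.

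*HNF4A* was at 373 and 224 CPM in miR-23a KO against 340 and 362 in Scr. The log2 fold change was -0.19 (standard error 0.46), 0.09 with replicate 1 alone and -0.61 with replicate 2 alone. With GC content and length corrected it was 0.17. *GATA4*, at 185 and 102 CPM against 117 and 134, had 0.24 (standard error 0.46), with 0.56 for replicate 1 alone and -0.25 for replicate 2 alone. Both genes had 1 miR-23a KO library on each side of the Scr pair.

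*FOXA1* and *FOXA2* differed less within the miR-23a KO pair. *FOXA1* was at 74.5 and 71.9 CPM, inside the Scr range of 65 to 105, with a log2 fold change of -0.15 (standard error 0.45), -0.19 with replicate 1 alone and -0.20 with replicate 2 alone. Its value was -0.50 without Scr replicate 1 and 0.24 without Scr replicate 2, so its direction depended on the Scr library. *FOXA2* was at 80.7 and 52.2 CPM against 101 and 72.1 in Scr, with -0.33 (standard error 0.45), -0.10 and -0.68. *ONECUT1* was at 0.38 and 1.45 CPM against 0.417 and 1.28 in Scr. Its log2 fold change was 0.23 (standard error 0.98), -1.15 with replicate 1 alone and 0.81 with replicate 2 alone. The genes with a miR-23a-3p seed match (*HNF4A*, *FOXA1*, *CEBPA* and *PROX1*) thus had fitted values of both signs.

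**Figure D4:**
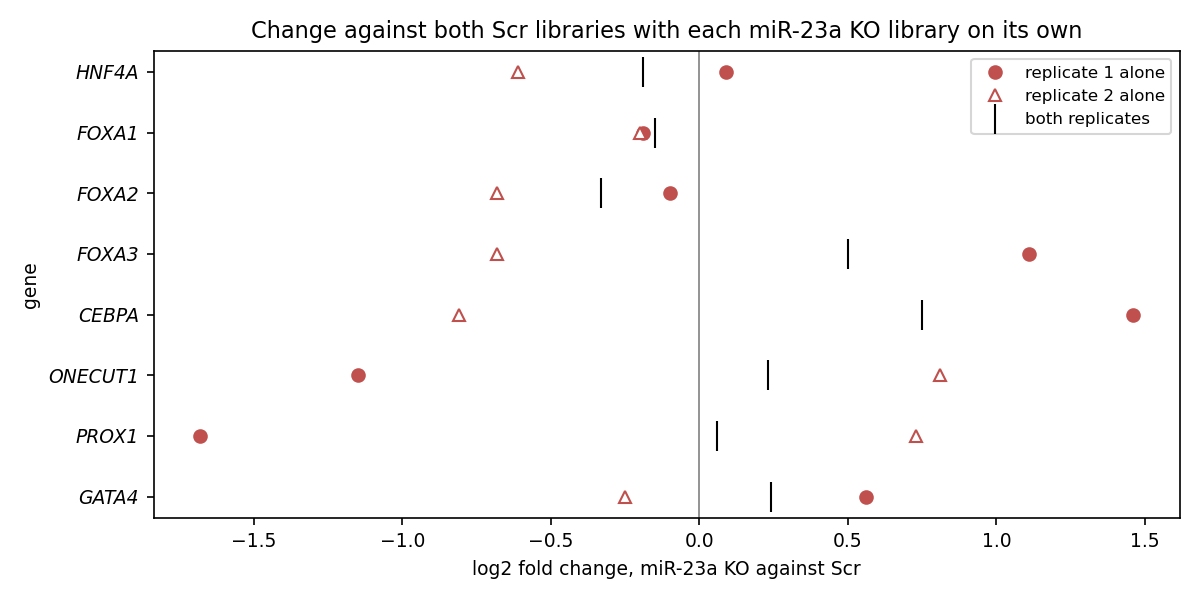
Log2 fold change of miR-23a KO against both Scr libraries (horizontal axis) for each transcription factor (vertical axis), with replicate 1 alone as circles, replicate 2 alone as open triangles and both as a bar. *CEBPA* runs from -0.81 to 1.46 and *PROX1* from -1.68 to 0.73, on both sides of 0.

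Between the KO groups, 0 of 8 factors were called, and so were 0% of the 13841 genes at an adjusted p under 0.05 and 0% under 0.001 (edgeR quasi-likelihood, Benjamini-Hochberg). At an unadjusted p under 0.05, 0 of 8 factors passed, against 645 genes higher and 562 lower in miR-23a KO (8.72%). DESeq2 called 0 of 8 factors and 474 genes (2.44%). Without overlap, the miR-23a KO pair was above the miR-27a KO pair for 2 of 8 factors (19% of genes) and below it for 1 of 8 (20.6% of genes).

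*GATA4* and *FOXA1* were the factors higher in both miR-23a KO libraries, with log2 fold changes of 0.81 (standard error 0.41) and 0.38 (standard error 0.31). *HNF4A* was the one lower in both, with -0.47 (standard error 0.40). With replicate 1 of miR-23a KO alone these values were 1.17, 0.41 and -0.15, and with replicate 2 alone 0.31, 0.34 and -0.90. Both libraries lay on the same side of the miR-27a KO pair for these genes, so either one alone could not turn the direction. *CEBPA* at 1.01 (standard error 0.79) and *FOXA3* at 0.98 (standard error 0.65) became -0.58 and -0.22 with replicate 2 alone, and 1.74 and 1.62 with replicate 1 alone. *PROX1* at -0.42 (standard error 0.78) became 0.31 with replicate 2 alone and -2.04 with replicate 1 alone. *FOXA2* at 0.07 (standard error 0.37) became -0.29 and 0.35 in the same order, and *ONECUT1* at -0.09 (standard error 0.87) became 0.53 and -1.37. With replicate 1 alone 4 factors were called (*CEBPA*, *FOXA3*, *PROX1* and *GATA4*), and with replicate 2 alone 1 was (*HNF4A*). The same fits called 51.4% and 34.2% of all genes, so these counts are no result about the factors as a list.

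For each factor with a mean of at least 10 CPM, the 2 genes with the most similar pattern over the 6 libraries were sought, by the root mean square difference of centred log2 CPM among 14162 other genes. *GATA4* was nearest to *WWP2* (0.038) and *APOO* (0.039), and *HNF4A* to *ENTPD3* (0.051) and *PCSK6* (0.064). *FOXA1* was nearest to *PYROXD1* (0.079) and *MTRNR2L1* (0.125), *FOXA2* to *ATXN2L* (0.043) and *AP2A2* (0.049), and *FOXA3* to *CLN3* (0.066) and *TAX1BP3* (0.067). *CEBPA* was nearest to *RPS6KB2* (0.076) and *CSRP1* (0.076), and *PROX1* to *DAAM1* (0.074) and *HEATR5B* (0.110). None of the 8 factors was among the 2 genes nearest to another factor. For *CEBPA*, *FOXA3* and *PROX1* the highest and the lowest library were both of miR-23a KO. Their log2 ratios of replicate 1 to replicate 2 in that pair were 2.32, 1.83 and -2.35. The difference within that pair moved with GC content over all genes. Whether the nearest genes share base composition with the factors was not tested.

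Close relatives of the 8 factors are given beside them. *GATA6*, the paralog of *GATA4*, was at 13.6 and 15.1 CPM in miR-27a KO and 4.87 and 3.31 in Scr, and rose by a log2 fold change of 1.80 while *GATA4* fell. The adjusted p was 0.0176 for *GATA6* by the edgeR quasi-likelihood test (Benjamini-Hochberg), and the call was lost with all 6 libraries in the fit (0.246) and without miR-27a KO replicate 2 (0.089). *NR5A2*, a nuclear receptor of bile acid synthesis, was at 0 and 0.12 CPM in miR-27a KO (2 counts over the group) and 4.24 and 7.97 in Scr. The mean of *NR5A2* in Scr was 101 times that in miR-27a KO, with a 95% interval of 28 to 835 from counting error only. The fitted log2 fold change of *NR5A2* was -6.49, and with single libraries left out it ran from -9.54 to -5.57. At -9.54 only the miR-27a KO library with 0 counts was left, so that value depends on the prior count.

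The paralogs *CEBPB* and *CEBPD* did not pass the test in miR-27a KO. *CEBPB* was at 65.7 and 65.4 CPM against 197 and 99.4 in Scr, and *CEBPD* at 40.3 and 42.7 against 52.3 and 24.8. *HNF4G* was at 3.57 and 3.61 CPM against 2.64 and 4.46 in Scr, and *ONECUT2* at 8.42 and 7.77 against 10.1 and 14.

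Among 20 other liver-enriched transcription factors, 19 were tested in miR-27a KO against Scr, of which 1 (*GATA6*) was called higher and 4 lower, against 3.52% and 6.74% of all genes tested. Besides *NR5A2*, the lower ones were *CREB3L3*, a membrane-bound factor of lipid metabolism (24.7 and 23.7 CPM against 56.4 and 70.3), *TBX3*, a T-box factor of the hepatoblast (99.5 and 100 against 235 and 168), and *NR0B2*, a nuclear receptor that represses bile acid synthesis (107 and 107 against 198 and 233). Their log2 fold changes were -1.39, -1.01 and -1.01.

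Of 14 partners and cofactors, 1 was called higher and 2 lower, against the same shares of all genes. *PPARGC1A*, a coactivator of HNF4A, was at 1.11 and 2.97 CPM in Scr, with 9.81 and 9.21 for miR-27a KO, and at 0 in both miR-23a KO libraries. Its log2 fold change in miR-27a KO was 2.21 (standard error 0.46), and it ran from 1.68 to 3.09 with single libraries left out. The call was lost without the low-count filter, with all 6 libraries in the fit and without either miR-27a KO library. *TRIB1*, which directs CEBPA to degradation, had 64.2 and 60.2 CPM against 126 and 104 in Scr. *TRIB2*, with the same known role, had 0 and 0 CPM against Scr values of 3.06 and 1.42, which is at least 24.7-fold lower at a floor of 3 counts over the group.

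Of 43 textbook target genes of the network, 35 were tested in miR-27a KO against Scr, with 2 called higher and 7 lower, again against 3.52% and 6.74% of all genes. No list was tested as a whole. Their median log2 fold change was -0.18, against 0.01 for all genes. *ALB*, which codes for serum albumin, was at 2087 and 2150 CPM against 10419 and 15110 in Scr, a log2 fold change of -2.59. *FGB*, a fibrinogen chain, had -2.05. *TF*, which codes for transferrin, and *MTTP*, needed to load lipoproteins with lipid, were higher by log2 fold changes of 1.25 and 1.49. *TF* lost its call with GC content and length corrected (log2 fold change 0.97). *PCK1*, an enzyme of glucose synthesis, had 70 and 57 counts in Scr but 1 count in either miR-27a KO library. In miR-23a KO against Scr, edgeR called 0 genes in each of these 3 lists, and DESeq2 called 0, 1 and 0. With replicate 1 of miR-23a KO alone edgeR called 4, 5 and 11, and with replicate 2 alone 1, 0 and 6, in fits that called 18.6% and 4.12% of all genes. With all 6 libraries in the fit, the calls in miR-27a KO were 1, 0 and 1 in place of 5, 3 and 9. That fit called 0.452% of all genes, against 10.3% in the fit reported. Of the called genes named from these lists *NR5A2* and *PCK1* kept their calls in it. With single libraries left out, the calls in miR-27a KO ran from 3 to 10 for the liver-enriched factors, 0 to 6 for the partners and 4 to 14 for the targets, in fits that called 2.34% to 26% of all genes. Over all genes tested in these lists the median log2 fold changes were -0.08, 0.09 and -0.18, and over the 8 factors -0.36. For the 8 factors the median lay between -0.16 and 0.02 with GC content and length corrected.

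Some markers of other cell types were called in miR-27a KO against Scr and others were not. The 6 cholangiocyte and progenitor markers summed to 1825 and 1856 CPM in miR-27a KO, 927 and 637 in Scr, and 473 and 779 for miR-23a KO, with *SPP1* the most abundant and *KRT7* at 3 counts or fewer per library on average. Of these, *SPP1* (1267 and 1291 CPM against 473 and 186) and *EPCAM* were called higher in miR-27a KO, while *KRT19* and *SOX9* were not called, with log2 fold changes of -0.31 and 0.04. The 4 fetal liver markers summed to 9504 and 9470 CPM in miR-27a KO against Scr sums of 12782 and 11844, with *AHSG* the most abundant and *AFP* and *DLK1* called lower (log2 fold changes -4.11 and -8.57). *GPC3* and *AHSG* were not called, with log2 fold changes of 0.05 and 0.11. Of the gut and other endoderm markers 2 of 5 were in the table, with sums of 462 and 452 CPM in miR-27a KO against Scr sums of 430 and 464. *VIL1* made up most of these sums, and *CDX2*, at 0.182 and 0.361 CPM against Scr values of 5.42 and 5.34, was called lower. The mesenchymal markers summed to 152 and 150 CPM in miR-27a KO against Scr sums of 216 and 182. Most of this was *ACTA2* (147 and 145 CPM against 199 and 153 in Scr), which was not called, with a log2 fold change of -0.27. *PDGFRB* was called lower (log2 fold change -2.12), and *COL1A1* and *DES* were at 3 counts or fewer per library on average. The endothelial markers did not exceed a sum of 6.84 CPM in any library. The part of these markers in the values of the 8 factors was not tested.

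**Figure D5:**
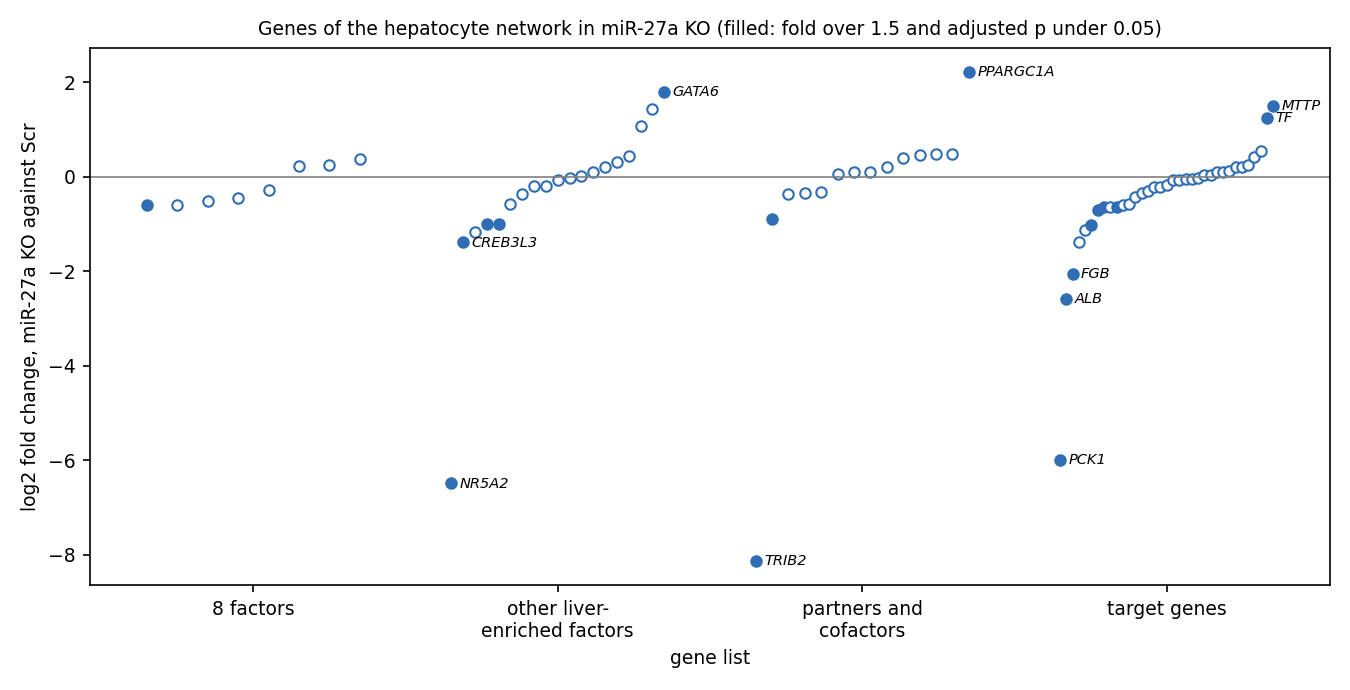
Log2 fold change of miR-27a KO against Scr (vertical axis) for the genes tested in each list (horizontal axis), filled where the fold change was over 1.5 and the adjusted p under 0.05. The 8 factors lie between -0.61 and 0.37, and single called genes of the other lists shown reach -8.13 for *TRIB2* (0 counts in miR-27a KO, so the value depends on the prior count) and 2.21 for *PPARGC1A*.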

How the data were processed

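RNA-seq was deposited for 6 HepG2 libraries. The deposited columns are named FPKM, but the deposited values were read to be expected counts per gene, since their totals differ between libraries and many are whole numbers. All count tests rest on this reading. The submitters' processing notes name HISAT, StringTie, Cufflinks and GATK without versions or roles, and the genome build is not given in the sources used here. The labels and the paper name different TruSeq kits, of which only one marks strand, and parts of the label wording do not match HepG2, so the sample titles were followed.

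Expected counts were rounded to whole numbers. Every comparison used only its 4 libraries, in edgeR 4.0.16 in R 4.3.3 (filterByExpr, TMM, glmQLFit, glmQLFTest, two-sided), with Benjamini-Hochberg adjustment over all genes tested. Calls needed an adjusted p under 0.05 together with more than 1.5-fold change. Log2 CPM used a prior count of 2. Lengths and GC content came from GENCODE release 29, matched for 88.0% of genes. The fit was tested on simulated data with less spread between libraries than the comparisons with miR-23a KO had. The simulated data also held no trend with GC content, so they do not show how the fit performs in those comparisons.

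The 8 factors, the gene lists and the tests were chosen with earlier results of these data known. Named genes are the 8 factors, 7 relatives and partners, up to 5 called genes with the largest absolute log2 fold change per list and comparison, the 2 genes of most similar pattern per factor, and single markers of the cell type lists. The lists leave out 2 genes of the design, which are not reported here.

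Counts of genes whose libraries do not overlap used CPM scaled over the 4 libraries compared. After these were seen, they were recomputed on CPM scaled over 6 libraries, which was known to be nearer to the earlier results, and that version was set aside. On that scale the shares of genes higher and lower were 8.88% and 14.9% for miR-23a KO against Scr, 32.4% and 31.9% for miR-27a KO against Scr, and 18.7% and 20.7% for miR-23a KO against miR-27a KO. The counts of factors were the same on both scales.

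Alternatives were a replicate block, a loess correction for GC content and length (span 0.5, degree 2), the same with the block, DESeq2 1.42.0, median-ratio size factors, no low-count filter, all 6 libraries in one fit, and leaving out each library. Their use on the lists and on the other genes named was chosen after seeing the data. *TWIST1*, the edited microRNA genes and their host transcript were not analysed here.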

Additional observations from a re-analysis of the deposited data

Results flagged for a closer look

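For 3 of 25 genes examined (the 8 factors, their relatives and partners, and called genes named from the lists), both miR-23a KO libraries lay on one side of both Scr libraries and both miR-27a KO libraries on the other. Over the 13556 genes tested against Scr in both comparisons, 5.66% had such an order. Many of the 25 were named because they were called in miR-27a KO against Scr, so the 2 shares cannot be compared. Against Scr alone, the miR-23a KO part did not pass the edgeR quasi-likelihood test (Benjamini-Hochberg), with adjusted p values of 0.46 for *PPARGC1A* and 1 for *NR5A2* and *CREB3L3*. *PPARGC1A* had 0 counts in both miR-23a KO libraries and 162 and 153 in miR-27a KO, with a fitted log2 fold change of miR-23a KO against miR-27a KO of -10.27, which depends on the prior count. At a floor of 3 counts over the group it was at least 101-fold lower in miR-23a KO.

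*NR5A2* was at 9.89 and 11.9 CPM in miR-23a KO, 4.24 and 7.97 in Scr, and 0 and 0.12 in miR-27a KO, with a fitted value of 7.33. *CREB3L3* was at 70.8 and 88.1 CPM in miR-23a KO, 56.4 and 70.3 in Scr, and 24.7 and 23.7 in miR-27a KO, with 1.72. The direct comparison of the KO groups by the edgeR quasi-likelihood test (Benjamini-Hochberg) gave adjusted p values of 0.099, 0.101 and 0.176 for *PPARGC1A*, *NR5A2* and *CREB3L3*, so none of the 3 passed. Other fits differed. DESeq2 (Benjamini-Hochberg) gave 2.26e-07, 1.27e-07 and 0.0224 in the same order. With all 6 libraries in the edgeR quasi-likelihood fit (Benjamini-Hochberg), *PPARGC1A* and *NR5A2* passed at 0.0232 and 0.0194, and with GC content and length corrected at 0.0253 and 0.0399, while *CREB3L3* had 0.0525 and 0.162. None of the 8 factors showed this pattern.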

How the results depend on the processing

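The count of factors called in miR-27a KO against Scr was 1 in the fit reported (10.3% of all genes). It was 0 with all 6 libraries in the fit (0.452%), 0 with GC content and length corrected (10.5%) and 0 with that correction and the replicate block (12.1%). With single libraries left out it lay between 0 and 3, in fits that called 2.34% to 26% of all genes. For miR-23a KO against Scr the count was 0 under each alternative that kept all libraries and 0 to 3 with single libraries left out (0.028% to 18.6% of all genes). For miR-23a KO against miR-27a KO it was 0, and 0 to 4 with single libraries left out (0.5% to 51.4% of all genes). A fit without 1 library leaves 1 sample in a group, which is assumed to vary like the other group. With the replicate block the counts were 0, 1 and 0, and the calls over all genes went from 0 to 69, from 1418 to 1693 and from 0 to 400. The adjusted p of *FOXA3* in miR-27a KO was 0.0436 with the block (edgeR quasi-likelihood, Benjamini-Hochberg), at under 1.5-fold. Libraries of the same number correlated at 0.15, 0.01 and 0.02 in their deviations, and the labels give no pairing by number.

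Direction changed for these log2 fold changes, and the cause was not tested. In miR-23a KO against Scr, *PROX1* was -0.02 with median-ratio size factors, -0.02 with DESeq2, -0.05 with all 6 libraries, -0.38 with the replicate block, -0.68 with the GC content and length correction and -0.74 with both. *HNF4A* was 0.17 with the correction and 0.06 with both, and *FOXA1* 0.05 with both. In miR-27a KO against Scr, *CEBPA* was 0.02 with the correction and 0.06 with both. In miR-23a KO against miR-27a KO, *FOXA2* was -0.14 with the correction and -0.14 with both.

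With single libraries left out, log2 fold changes in miR-23a KO against Scr ran from -0.61 to 0.09 for *HNF4A*, -0.50 to 0.24 for *FOXA1*, -0.68 to 1.11 for *FOXA3*, -0.81 to 1.46 for *CEBPA*, -1.15 to 1.24 for *ONECUT1*, -1.68 to 0.73 for *PROX1* and -0.25 to 0.56 for *GATA4*. In miR-27a KO against Scr *ONECUT1* ran from -0.49 to 1.24. The call of *GATA4* there was lost without Scr replicate 2 (-0.51) and without either miR-27a KO replicate (-0.60 each). In miR-23a KO against miR-27a KO the values ran from -0.29 to 0.35 for *FOXA2*, -0.22 to 1.62 for *FOXA3*, -0.58 to 1.74 for *CEBPA*, -1.37 to 0.61 for *ONECUT1* and -2.04 to 0.31 for *PROX1*. The alternatives were also run for the called genes named from the lists in miR-27a KO against Scr, and none of these changed direction. They were not run on single relatives without a call or on markers. The calls among other liver-enriched factors, partners and targets were 5, 3 and 9. With all 6 libraries in the fit, which called 0.452% of all genes, they were 1, 0 and 1, and *NR5A2* and *PCK1* kept the call. With single libraries left out they ran from 3 to 10, 0 to 6 and 4 to 14, and without the low-count filter the partners had 1. For miR-23a KO against Scr the calls in these lists, 0 each, ran from 0 to 4, 0 to 5 and 0 to 11 with single libraries left out, and the block called 1 partner. For miR-23a KO against miR-27a KO they ran from 0 to 12, 1 to 7 and 0 to 25, against 0 each. In miR-27a KO against Scr the other liver-enriched factors had 9 calls with the correction and the block. There *TF* lost its call with the correction (log2 fold change 0.97), *TRIB2* and *PPARGC1A* without the low-count filter, and *GATA6*, *TBX3*, *TRIB1*, *TRIB2*, *PPARGC1A* and *TF* when a miR-27a KO library was left out. In miR-23a KO against miR-27a KO, *PPARGC1A*, *NR5A2* and *CREB3L3* were called with DESeq2, and the first 2 also with all 6 libraries, with the correction and with the block. *CREB3L3* was also called with the correction and the block together and with either miR-23a KO library left out. *ONECUT1* had 5 to 27 counts per library, and its groups overlapped in each comparison.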
